A study of Homo sapiens with 2 samples.

Results

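The fibrillar and type VI collagen genes were followed in an ATAC-seq comparison of G401 cells treated with DMSO or with the PRC2 inhibitor MAK683. The 10 genes were taken by family: 7 encode chains of fibrillar collagens (COL1A1, COL1A2, COL2A1, COL3A1, COL5A1, COL5A2 and COL11A1) and 3 encode chains of type VI collagen (COL6A1, COL6A2 and COL6A3). They are 10 of 20163 protein-coding genes in GENCODE. A peak was assigned to a gene when it overlapped the gene body or reached to 3 kb or less from its transcription start site (TSS). By this rule the genes held 134 of 114060 peaks in the DMSO library and 132 of 161184 peaks in the MAK683 library.

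ATAC-seq inserts sequencing adapters into DNA that the Tn5 transposase can reach, so that tags, the sequenced read ends, pile up over accessible chromatin. G401 is an established line of malignant rhabdoid tumor that lacks the SWI/SNF subunit SMARCB1. MAK683 is a ligand of the PRC2 subunit EED and was given at 3 μM for 3 days to one culture, and DMSO, its solvent, to the other. All cells were of the same line and neither culture carried another agent or allele per the labels. There was 1 library per group, so no difference below was tested against variation between cultures and no p-value was computed.

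The libraries held 16598348 tags after filtering in DMSO and 18265284 in MAK683. Peak height is the number of tags piled up at the summit per 1000000 tags of the library (RPM), and 1 tag was worth 0.0602 RPM in DMSO and 0.0547 RPM in MAK683. The lowest peaks listed held 6 tags in either library, so a stretch with no listed peak may still hold tags. The peak tables listed 0 peaks over the 54.0 kb of SMARCB1 and its promoter in either library. The intervals below are 95% intervals from the tag numbers, cover counting error only, and do not stand in for replicates.

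Fibrillar collagens form the cross-striated fibrils of skin, bone, tendon and cartilage. COL1A1 and COL1A2 encode the chains of type I collagen, COL3A1 that of type III collagen and COL2A1 that of cartilage type II collagen. Type V collagen (COL5A1 and COL5A2) and type XI collagen (with COL11A1) copolymerize with these and limit fibril diameter. The type VI chains assemble into beaded microfilaments around cells, and COL6A1, COL6A2 and COL6A3 encode the α1, α2 and α3 chains of a heterotrimer. PRC2 trimethylates lysine 27 of histone H3, a mark of repressed genes, and developmental and matrix genes are among its known targets.

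COL5A1 and COL6A3, the pair of genes with a promoter peak in MAK683 alone, differ widely in CpG number ahead of their TSS. The 250 bases before each TSS are shown here for these genes, and for COL6A2 and COL11A1, which had a promoter peak in both libraries. They run 5′ to 3′ on the gene's strand, are RefSeq promoter sequences (GRCh38.p14) found letter for letter in GRCh37 at the positions given, and carry each CpG in capitals.
COL5A1, chr9:137533399-137533648 of GRCh37, plus strand: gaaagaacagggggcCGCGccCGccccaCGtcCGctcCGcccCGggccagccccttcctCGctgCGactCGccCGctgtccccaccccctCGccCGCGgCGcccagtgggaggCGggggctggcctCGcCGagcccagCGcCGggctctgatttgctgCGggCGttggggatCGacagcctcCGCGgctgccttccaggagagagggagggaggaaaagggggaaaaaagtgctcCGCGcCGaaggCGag
COL6A3, chr2:238322808-238323057, minus strand: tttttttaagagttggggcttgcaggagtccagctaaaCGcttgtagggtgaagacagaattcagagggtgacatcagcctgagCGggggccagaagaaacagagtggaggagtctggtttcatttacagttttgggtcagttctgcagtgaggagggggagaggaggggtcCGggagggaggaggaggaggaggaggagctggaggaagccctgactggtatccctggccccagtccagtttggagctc
COL6A2, chr21:47517776-47518025, plus strand: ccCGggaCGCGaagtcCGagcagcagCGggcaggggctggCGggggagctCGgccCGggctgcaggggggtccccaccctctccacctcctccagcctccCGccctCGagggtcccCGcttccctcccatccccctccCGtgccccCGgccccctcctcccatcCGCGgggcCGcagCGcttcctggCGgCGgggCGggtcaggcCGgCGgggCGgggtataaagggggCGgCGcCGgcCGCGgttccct
COL11A1, chr1:103574079-103574328, minus strand: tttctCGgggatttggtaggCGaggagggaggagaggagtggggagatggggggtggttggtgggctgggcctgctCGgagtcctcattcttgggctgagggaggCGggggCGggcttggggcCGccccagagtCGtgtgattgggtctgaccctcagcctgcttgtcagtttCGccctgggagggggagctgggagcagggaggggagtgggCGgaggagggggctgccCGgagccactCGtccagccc
The stretches held 29 CpG in COL5A1, 3 in COL6A3, 28 in COL6A2 and 11 in COL11A1.

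The windows also differed in the promoter elements they carried. Motifs were searched on both strands of the 300 bases from 250 before to 50 after the TSS. No motif contains another. TATAAA, the core of the TATA box, stood in 3 of the 10 windows, 29 bases before the TSS in COL1A1, 33 in COL1A2 and 32 in COL6A2, and 9.79% of the windows of 20163 protein-coding genes held it. CCAAT stood in COL1A1, COL1A2 and COL11A1, against 35.9% of all windows. GGGCGG, the core of the GC box, stood in 6 of the 10, at 1 place in COL1A1, 2 in COL5A1, 3 in COL11A1, 4 in COL6A2, 5 in COL2A1 and 13 in COL6A1, against 60.9% of all windows that held it at least once. The COL3A1, COL5A2 and COL6A3 windows held none of these letters. Over all 10 genes the number of CpG in this window ran from 3 in COL3A1, 4 in COL6A3 and 5 in COL5A2 to 36 in COL5A1 and COL6A2, around a median of 23 for all genes. The GC content ran from 39.7% in COL3A1 to 79.3% in COL6A2, with a median of 63.7% for all genes. COL5A1 had 74.0% GC and COL6A3 56.3%.

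A promoter peak, that is a peak within 3 kb of the TSS, was listed at 8 of the 10 genes in DMSO and at all 10 in MAK683. Among all protein-coding genes it was listed at 72.7% in DMSO and 78.7% in MAK683. COL5A1 and COL6A3 had it in MAK683 alone, as did 7.87% of all genes. COL5A1 had 14 tags at its tallest promoter peak in MAK683 (0.766 RPM, interval 0.419 to 1.29) and COL6A3 had 13 tags (0.712 RPM, 0.379 to 1.22). Both are about 2 times the lowest listed height, and neither promoter was listed in DMSO.

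At the other 8 genes each counting interval of the ratio of the tallest promoter peaks held 1. COL3A1 is an exception within 1 kb of the TSS or at the peak nearest to it, where its log2 ratio was -1.66 (interval -3.03 to -0.45). COL1A1 had 27 tags (1.63 RPM) in DMSO and 28 tags (1.53 RPM) in MAK683, a log2 ratio of MAK683 over DMSO of -0.09 (interval -0.90 to 0.73). With the 3 kb window the ratio was lowest at COL6A1, with -0.60 (-1.62 to 0.40), and highest at COL2A1, with 0.12 (-0.79 to 1.06). Between them stood COL11A1 with -0.38 (-1.09 to 0.33), COL6A2 with -0.37 (-1.40 to 0.63), COL5A2 with -0.30 (-1.14 to 0.53), COL1A2 with -0.22 (-1.23 to 0.79) and COL3A1 with -0.08 (-0.96 to 0.81).

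These ratios were read against a genome in which most promoter peaks were lower in MAK683. Where a library listed no peak, 0.361 RPM was used as a floor, the height of 6 tags in DMSO, which gives COL5A1 a log2 ratio of 1.08 and COL6A3 one of 0.98. The floor is a convention and not a bound. With it, 3 of the 10 genes were higher in MAK683, against 21.5% of 16247 genes with a promoter peak. At least 1.5-fold higher were 2 of the 10 (COL5A1 and COL6A3), against 9.64% of genes, and at least 1.5-fold lower was 1 (COL6A1), against 32.8%. Both higher ratios rest on the floor, which moves with the peak filter. At equal peak numbers they were 0.64 at COL5A1 and 0.53 at COL6A3, which leaves 1 gene past 1.5-fold, and with peaks of a −log10 q of at least 5 the values 0.35 and 0.24 leave 0. The median log2 ratio of the 10 genes was -0.15 and that of all genes -0.42, and 9 of the 10, all but COL6A1, stood above the median of all genes. Without depth scaling 5 of the 10 were higher in MAK683, and 7 when heights were divided by the median ratio of all shared regions, so the direction at the genes with ratios near 1 rests on the scaling. The median height in DMSO was 1.36 RPM over the 8 genes with a peak and 1.93 RPM over all genes with one, and in MAK683 it was 1.15 RPM over 10 genes and 1.31 RPM over all genes.

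**Figure D1:**
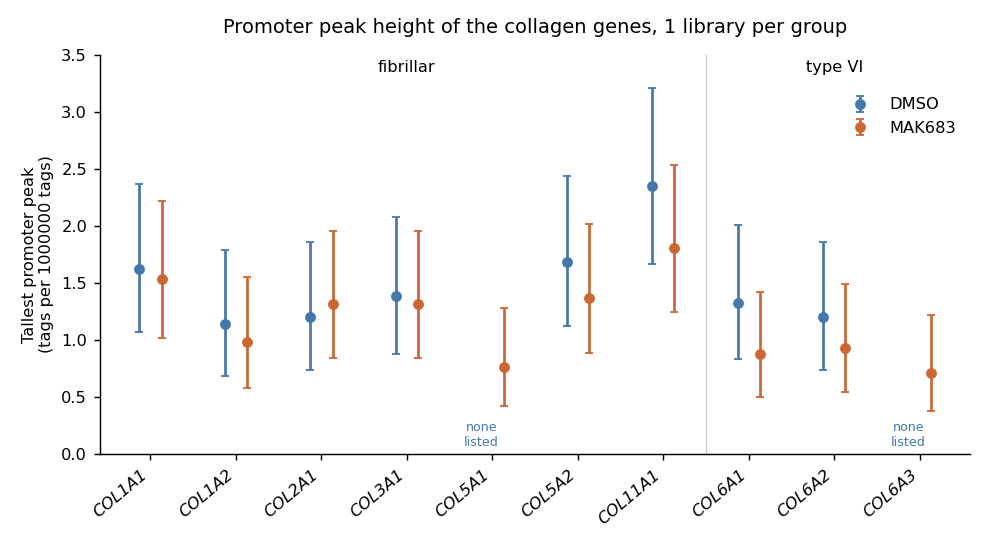
Height of the tallest peak within 3 kb of the TSS of each collagen gene, in RPM, in DMSO (blue) and MAK683 (orange); bars are 95% Clopper-Pearson counting intervals of 1 library each. The intervals of the libraries overlap at each of the 8 genes with a peak in both, and COL5A1 and COL6A3 have no listed DMSO peak.

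The order of the promoter heights changed little at the top. In DMSO, COL11A1 was highest at 2.35 RPM (1.67 to 3.21), followed by COL5A2 at 1.69, COL1A1 at 1.63, COL3A1 at 1.39, COL6A1 at 1.33, COL2A1 and COL6A2 at 1.20 each, and COL1A2 at 1.14 RPM (0.689 to 1.79). In MAK683, COL11A1 was again highest at 1.81 RPM (1.24 to 2.54), and COL5A1 at 0.766 and COL6A3 at 0.712 RPM (0.379 to 1.22) were lowest. The intervals of all neighbours in either order overlapped. COL11A1 and COL6A3 in MAK683 had intervals that did not.

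The peaks inside the genes lay mainly in introns. Of the 134 DMSO peaks, 117 had their summit in an intron, 5 in a coding exon, 2 in an untranslated region, 9 upstream and 1 downstream. In MAK683 the numbers were 114, 5, 1, 11 and 1. COL11A1 held 72.4% of the DMSO peaks and 57.6% of the MAK683 peaks, and without it the other 9 genes had 37 peaks in DMSO and 56 in MAK683. With the MAK683 peaks of all genes cut to the number of DMSO peaks by q-value, the 10 genes had 134 and 95 peaks, and the 9 genes without COL11A1 had 37 and 39. At a −log10 q of at least 5 these were 102 and 55, and 23 and 24. Such a limit takes out low peaks, and the median peak of the whole library was 0.663 RPM in DMSO and 0.547 RPM in MAK683. Peak number was higher in MAK683 at 4 genes (COL2A1, COL3A1, COL5A1 and COL6A3), lower at 4 (COL5A2, COL11A1, COL6A1 and COL6A2) and equal at 2 (COL1A1 and COL1A2). At equal peak numbers it was higher at COL2A1, COL5A1 and COL6A3 only, and COL3A1 turned to 4 and 2 and COL1A1 to 8 and 6. That cut takes out MAK683 peaks only, so a count could move only toward fewer MAK683 peaks. At a −log10 q of at least 5, COL1A1 had 5 and 1, COL1A2 1 and 2, COL3A1 3 and 2, and COL6A1 2 and 2. Among all genes with any peak, 36.8% had more peaks in MAK683.

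Overlapping peaks of the libraries were joined, and a joined region took the height of the tallest peak that each library had in it. The genes had 165 regions: 74 with a peak in both libraries, 55 with a DMSO peak alone and 36 with a MAK683 peak alone. Of all 199510 regions of the genome, 29.1% had a peak in both libraries, 25.1% in DMSO alone and 45.9% in MAK683 alone. Without COL11A1 the counts were 21, 14 and 32. MAK683 was higher at 7 of the 74 shared regions, against 23.8% of 57983 shared regions genome-wide, and their median log2 ratio was -0.53 against -0.33. The median over the shared regions of the 9 genes other than COL11A1 was -0.31. The counting interval of the ratio lay below 1 at 3 of the 74, against 6.57% genome-wide, and above 1 at 0, against 0.505%.

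**Figure D2:**
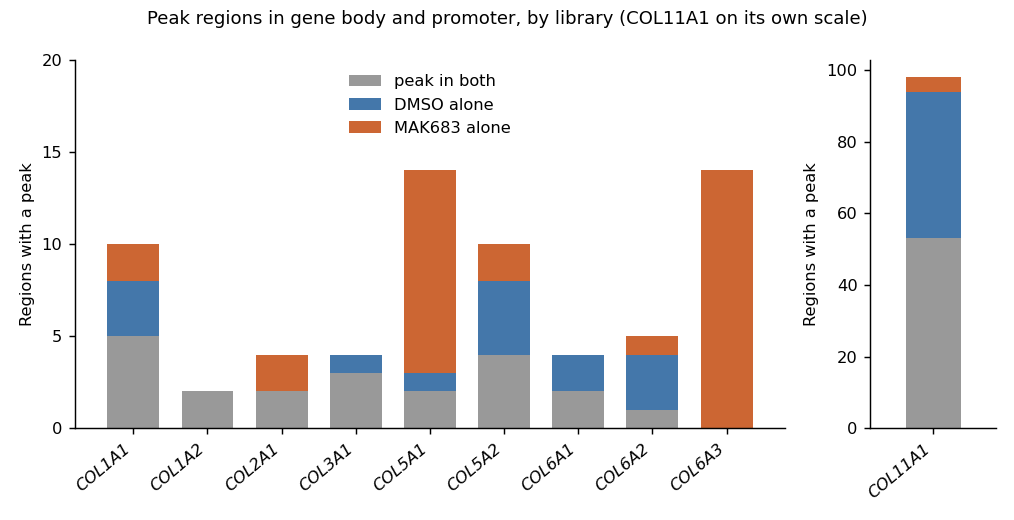
Number of joined regions with a peak in both libraries (grey), in DMSO alone (blue) or in MAK683 alone (orange) in each gene body and promoter; COL11A1 is drawn on its own axis. All 14 regions of COL6A3 and 11 of the 14 of COL5A1 are MAK683 alone, while COL11A1 has 41 DMSO alone and 4 MAK683 alone.

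COL6A3 had no listed DMSO peak from promoter to gene end and 14 peaks in MAK683. It encodes the large α3 chain that joins the α1 and α2 chains in type VI collagen, and lies at chr2:238232646-238322971 on the minus strand. Its MAK683 peaks covered 7.40 kb, or 7.95% of the 93.2 kb of body and promoter, and were low, from 7 to 13 tags with a median of 9.5. They stood in groups: 5 within 5 kb of the TSS, 7 between 54.3 and 69.7 kb downstream of it, and 2 further along at 78.6 and 87.5 kb. The peak over the TSS ran for 1312 bp and held 13 tags at a summit 691 bp downstream, in an intron. A peak of 13 tags also stood 56.7 kb downstream and one of 12 tags 63.3 kb downstream, and 2 of the 14 summits fell in coding exons. A pattern of no DMSO peak and at least 3 MAK683 peaks was found at 3.22% of protein-coding genes and at 1 of these 10. In the 100 kb on each side of COL6A3 the libraries listed 4 and 23 peaks, so the higher number was not limited to the gene. With the MAK683 peaks cut to the number in DMSO by their q-value, COL6A3 kept 10 peaks, and at a −log10 q of at least 5 it kept 5. At a −log10 q of at least 10 it had none in either library.

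COL5A1 had 3 peaks in DMSO, all in introns away from the promoter, and 13 in MAK683. It encodes the α1 chain of type V collagen and lies at chr9:137533649-137736689 on the plus strand. The covered length was 1.74 kb in DMSO and 7.29 kb in MAK683. The 3 DMSO peaks held 17 tags 14.5 kb, 15 tags 56.9 kb and 10 tags 97.5 kb downstream of the TSS. The intronic peak 14.5 kb downstream was present in both libraries with 17 and 18 tags (log2 ratio -0.06, interval -1.10 to 0.99), and so was the one 97.5 kb downstream with 10 and 10 tags. MAK683 alone had 6 peaks within 5 kb of the TSS, 3 of them upstream. The tallest of these held 14 tags in a peak 128 to 616 bp upstream of the TSS, overlapping the CpG-dense stretch printed above. Another of 14 tags ran from 3.16 to 4.99 kb downstream. The 100 kb flanks held 2 peaks in DMSO and 5 in MAK683. Cut to equal peak numbers COL5A1 had 3 and 8 peaks. At a −log10 q of at least 5 it had 3 and 6, and at 10 or more 2 and 1, without a promoter peak. COL5A1 overlaps the antisense RNA gene COL5A1-AS1, and peaks do not tell strands apart.

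The 200 bases centred on the tallest promoter summits are given because they are the sites that the counts above rest on, with CpG in capitals and read from GRCh37 on the strand of the gene. COL11A1 in DMSO is added as the tallest promoter peak of the family.
COL6A3 in MAK683, chr2:238322016-238322215, minus strand: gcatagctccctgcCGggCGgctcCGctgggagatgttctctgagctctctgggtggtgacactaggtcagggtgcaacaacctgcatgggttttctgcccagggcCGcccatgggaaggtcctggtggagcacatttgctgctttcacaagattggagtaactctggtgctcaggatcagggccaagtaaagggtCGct
COL5A1 in MAK683, chr9:137533006-137533205, plus strand: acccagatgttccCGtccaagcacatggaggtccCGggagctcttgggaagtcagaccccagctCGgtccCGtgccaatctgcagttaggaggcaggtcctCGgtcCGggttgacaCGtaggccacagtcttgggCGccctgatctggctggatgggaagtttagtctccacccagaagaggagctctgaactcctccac
COL11A1 in DMSO, chr1:103572575-103572774, minus strand: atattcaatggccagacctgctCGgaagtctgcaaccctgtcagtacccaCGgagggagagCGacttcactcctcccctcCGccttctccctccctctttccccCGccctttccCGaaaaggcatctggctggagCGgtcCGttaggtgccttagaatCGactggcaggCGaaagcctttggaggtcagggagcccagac
The COL6A3 and COL11A1 sites lie in introns downstream of the TSS and hold 5 and 10 CpG, and the COL5A1 site lies upstream and holds 8.

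COL3A1, which encodes the only chain of type III collagen, had a peak on its TSS that was lower in MAK683. It shared 2 of its 3 intronic DMSO regions with MAK683. It lies at chr2:189839099-189877472 on the plus strand. The peak over the TSS held 23 tags (1.39 RPM, 0.878 to 2.08) in DMSO and 8 tags (0.438 RPM, 0.189 to 0.863) in MAK683. These intervals do not overlap, and the log2 ratio was -1.66 (interval -3.03 to -0.45). The neighbouring region, with summits 2.19 kb downstream in DMSO and 1.51 kb in MAK683, held 23 and 24 tags (log2 ratio -0.08, -0.96 to 0.81). A further intronic region, 4.07 kb downstream, held 26 and 19 tags (-0.59, -1.53 to 0.32). An intronic peak of 8 tags 9.95 kb downstream was listed in DMSO alone. The promoter height of COL3A1 within 3 kb therefore came from the TSS or from the first intronic region in DMSO, where they tied, and from the intronic region in MAK683. The TSS region was 1 of the 3 among 74 shared regions of the 10 genes with an interval below 1, against 6.57% genome-wide. The median log2 ratio of all shared regions of the genome was -0.33.

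COL1A1 and COL1A2, the genes of type I collagen, had equal peak numbers and close promoter heights in the libraries. COL1A1 (chr17:48261462-48278993, minus strand) had 8 peaks in each, with 27 tags in DMSO and 28 in MAK683 at the peak over the TSS. Of its 10 regions 5 had a peak in both libraries, 3 in DMSO alone and 2 in MAK683 alone. The DMSO-alone regions included upstream peaks of 12 and 11 tags. Its covered length was 5.55 kb and 4.28 kb. At the 3′ end of COL1A1 the region with its DMSO summit in the untranslated region held 18 and 10 tags, with a log2 ratio of -0.99 (interval -2.26 to 0.21). COL1A2 (chr7:94024207-94060539, plus strand) had 2 peaks in each library, both with summits in introns within 1.5 kb of the TSS. The peak nearer to the TSS held 19 and 18 tags, and the other held 8 and 13 tags (log2 ratio 0.56, -0.82 to 2.04). COL1A1 stood among 60 DMSO and 58 MAK683 peaks in its 100 kb flanks, the most of the 10 genes, and COL1A2 among 11 and 8.

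COL2A1 (chr12:48366750-48398337, minus strand), the gene of the cartilage collagen, was the only gene with a promoter peak in both libraries whose height was higher in MAK683 on the RPM scale. The tallest promoter peak lay 2.87 kb downstream of the TSS in an intron and held 20 tags in DMSO and 24 in MAK683 (log2 ratio 0.12, interval -0.79 to 1.06). The region over the TSS held 14 and 18 tags (0.22, -0.87 to 1.34). MAK683 alone had an upstream peak of 12 tags and an intronic one of 9 tags, and the covered length was 2.92 kb and 5.20 kb. The 100 kb flanks listed 5 and 16 peaks. Each interval at COL2A1 held 0, so a change in height was not detectable at this depth.

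COL5A2, which encodes the α2 chain of type V collagen and lies at chr2:189896624-190090038 on the minus strand, did not follow its partner COL5A1. It had 8 peaks in DMSO and 6 in MAK683, and its promoter peak was present in both with 28 and 25 tags at the same summit, 553 bp downstream of the TSS. All 4 of its shared regions were lower in MAK683, with a median log2 ratio of -0.57, except that the promoter region stood at 0.03 when heights were divided by the median ratio of all shared regions. The lowest ratio was at an intronic region 7.68 kb downstream, with 16 and 8 tags (-1.14, interval -2.57 to 0.17). The flanks held 8 and 10 peaks.

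**Figure D3:**
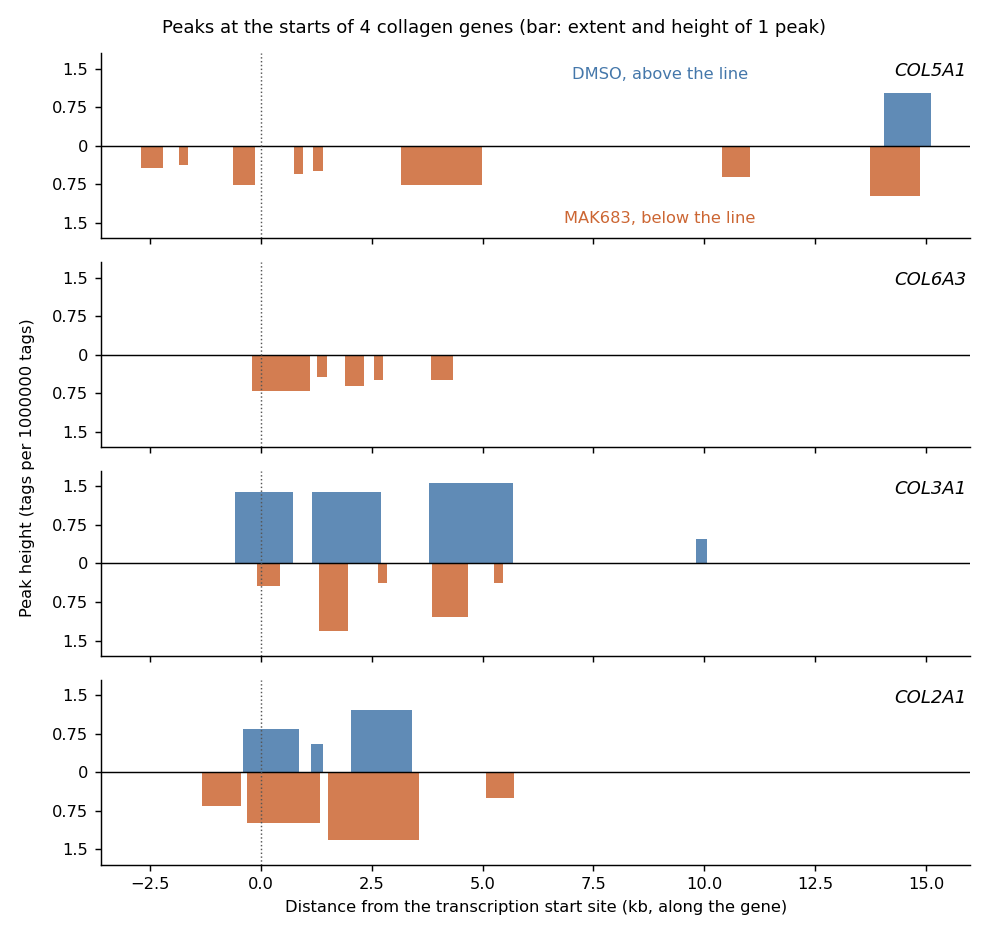
Peaks around the TSS of COL5A1, COL6A3, COL3A1 and COL2A1, as distance from the TSS in kb along the gene against height in RPM; each bar is 1 peak, DMSO above and MAK683 below the line. COL6A3 has bars only below the line, and the COL3A1 peak over the TSS is 1.39 in DMSO and 0.438 in MAK683.

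COL11A1, which encodes the α1 chain of type XI collagen, was the most peak-rich of the 10 genes and had fewer peaks in MAK683. It spans chr1:103342023-103574428 on the minus strand. DMSO listed 97 peaks and MAK683 76, placing COL11A1 at rank 14 and rank 45 of 20163 genes by peak number. Per 100 kb this was 41.3 and 32.3 peaks, against medians of 6.93 and 7.84 for all protein-coding genes. Peaks covered 34.6% of its body and promoter in DMSO and 19.8% in MAK683. The heights ran from 8 to 39 tags with a median of 12 in DMSO, and from 7 to 33 tags with a median of 10 in MAK683. Of its 98 regions, 53 had a peak in both libraries, 41 in DMSO alone and 4 in MAK683 alone.

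The shared regions of COL11A1 were lower in MAK683 with few exceptions. MAK683 was higher at 3 of the 53, against 23.8% of all shared regions of the genome. The median log2 ratio was -0.66, against -0.33 for all shared regions. The peak over the TSS held 39 tags in DMSO at a summit 1403 bp downstream of the TSS. In MAK683 it held 33 tags at a summit 127 bp upstream, so the ratio compares different sites of 1 region. The next tallest DMSO peaks of COL11A1 were one of 6939 bp in an intron, 29 tags high with its summit 61.5 kb downstream, and an upstream one of 27 tags 2.19 kb before the TSS. In MAK683 the matching peaks held 28 and 24 tags, and a peak of 29 tags stood 158 kb downstream. At 2 of the 53 shared regions of COL11A1, both in introns, the interval of the ratio lay below 1, against 6.57% of shared regions genome-wide. The one 224 kb downstream held 26 and 14 tags (log2 ratio -1.03, interval -2.08 to -0.04), and the one 181 kb downstream held 26 and 13 tags. The 100 kb flanks of COL11A1 were also lower in number, with 32 and 24 peaks. At equal peak numbers COL11A1 had 97 and 56 peaks, and at a −log10 q of at least 10 it had 37 and 13. Neither filter tests the direction. The first cuts MAK683 peaks only, so it could not have turned it. The second takes out low peaks, and the median peak of the whole library was 0.663 RPM in DMSO and 0.547 RPM in MAK683. The peaks were called against a single background level for the whole genome, so the copy number of a stretch and its accessibility cannot be told apart. A processed pseudogene, SOD2P1, lies in COL11A1 7.82 kb downstream of the TSS.

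**Figure D4:**
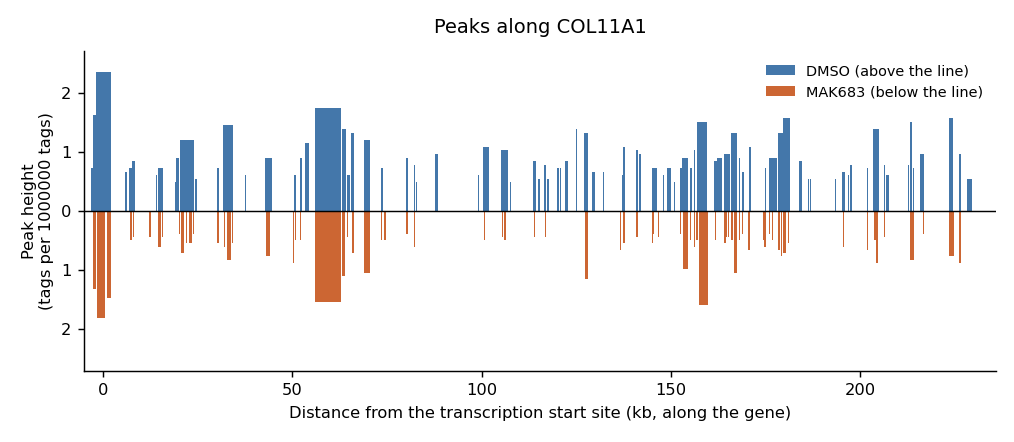
Peaks along COL11A1, as distance from the TSS in kb along the gene against height in RPM, with DMSO above and MAK683 below the line; each bar is 1 peak. DMSO has 97 bars up to 2.35 and MAK683 has 76 bars up to 1.81.

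COL6A1 and COL6A2 are neighbours on chromosome 21 and encode the α1 and α2 chains of type VI collagen. Unlike COL6A3, they had fewer listed peaks in MAK683 and lower promoter peaks on the RPM scale. Their promoter log2 ratios were -0.60 and -0.37, with intervals that held 0, against a median of -0.42 for all genes. Heights divided by the median ratio of all shared regions gave -0.27 and -0.04. At a −log10 q of at least 5 the peak numbers were 2 and 2 at COL6A1 and 3 and 1 at COL6A2. At 10 or more they were 2 and 1, and 1 and 1. COL6A1 (chr21:47401684-47424964, plus strand) had 4 peaks in DMSO and 2 in MAK683. Its peak over the TSS held 22 tags (1.33 RPM) in DMSO at a summit 294 bp downstream of the TSS. In MAK683 it held 16 tags (0.876 RPM) at a summit 289 bp upstream. A peak about 2.2 kb upstream held 20 and 14 tags (log2 ratio -0.65, interval -1.75 to 0.41). COL6A2 (chr21:47518026-47552762, plus strand) had 5 peaks in DMSO and 2 in MAK683. The tallest held 20 tags at a summit 13 bp before the TSS in DMSO and 17 tags at a summit 971 bp before it in MAK683. The promoter ratios of COL6A1 and COL6A2 thus each compare different sites of 1 region. The divergent transcript COL6A2-DT starts 582 bp upstream, so the COL6A2 peak cannot be assigned to either gene. Regions with a peak in both libraries numbered 2 at COL6A1, 1 at COL6A2 and 0 at COL6A3.

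The remaining genes of the same families were counted from a list of 6 (COL5A3, COL11A2, COL24A1, COL27A1, COL6A5 and COL6A6). A promoter peak was listed for 1 of them in DMSO and 5 in MAK683, against 72.7% and 78.7% of all genes. The list had 29 and 52 peaks in all. COL27A1, a fibrillar collagen gene, had it in both with 30 and 26 tags (log2 ratio -0.34). COL24A1, COL5A3, COL6A5 and COL6A6 had it in MAK683 alone, at 8 to 11 tags, as did 7.87% of all genes at any height, and COL11A2 had none. These 4 low genes were named after their values were seen. The median of the 5 ratios was 0.45, against -0.42 for all genes, and 4 of the 5 rested on the floor.

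Genes that process collagen in the endoplasmic reticulum had a promoter peak at 18 of 18 genes in both libraries, against 72.7% of all genes in DMSO and 78.7% in MAK683. Height was higher in MAK683 at 1 and lower at 17, where 21.5% of all genes with a promoter peak were higher. It was at least 1.5-fold lower at 9, against the 32.8% of all genes given above. The list's median log2 ratio was -0.54, against -0.42 for all genes. With heights divided by the median ratio of all shared regions it was -0.21, and 4 were higher and 13 lower. PLOD1, a lysyl hydroxylase, had 38 and 25 tags (log2 ratio -0.74, interval -1.53 to 0.02). P4HA2, a prolyl hydroxylase subunit, had 40 and 27 tags, P3H1, a prolyl 3-hydroxylase, had 42 and 29, and FKBP14, a prolyl isomerase, had 44 and 30.

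Propeptide removal and crosslinking genes had a promoter peak at 13 of 13 in both libraries, with 4 higher and 9 lower in MAK683, 2 and 3 of them by at least 1.5-fold, and a median of -0.14. Over all genes 72.7% had a promoter peak in DMSO and 78.7% in MAK683. Of genes with one 21.5% were higher, 9.64% at least 1.5-fold higher and 32.8% at least 1.5-fold lower, with a median of -0.42. The list's split turned to 8 higher and 5 lower (median 0.19) with heights divided by the median ratio of shared regions. TLL1, a tolloid-like procollagen C-proteinase, had 8 tags in DMSO and 24 in MAK683 (log2 ratio 1.45, interval 0.24 to 2.81), and 1 and 10 peaks. BMP1, which encodes the related C-proteinase, had 37 and 23 tags (-0.82, -1.64 to -0.03). PCOLCE, an enhancer of that cleavage, had 29 and 19 tags, and ADAMTS2, the N-proteinase, had 11 and 20.

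Collagen receptors had a promoter peak at 10 of 13 genes in each library, against 72.7% of all genes in DMSO and 78.7% in MAK683. Of the receptors 4 were higher and 7 lower in MAK683, 3 in each direction by at least 1.5-fold, with a median of -0.14. The shares of all genes were 21.5% higher, and 9.64% and 32.8% past 1.5-fold up and down. Among the 9 receptors with a peak in both, 3 were higher and 6 lower, and this turned to 5 and 4 under the same division. ITGA2, the α2 integrin chain that pairs with ITGB1 as a collagen receptor, had 9 and 32 tags (log2 ratio 1.69, interval 0.59 to 2.94). ANTXR2, a receptor that binds type IV and type VI collagen, had 11 and 32 tags (1.40, 0.38 to 2.54). CSPG4, a proteoglycan that binds type VI collagen, had 40 and 19 tags (-1.21, -2.08 to -0.39), and OSCAR, a collagen receptor of osteoclasts, had 21 and 12. The small leucine-rich proteoglycans, which coat collagen fibrils, had a promoter peak at 1 of 8 genes in DMSO and 4 in MAK683, against 72.7% and 78.7% of all genes. All 4 were higher in MAK683 (median 0.47), none reached 20 tags and 3 rested on the floor. Of them, chosen after their values were seen, LUM had 8 and 14 tags and DCN none and 14. Transcription factors of collagen genes had a promoter peak at 2 and 3 of 7 genes, beside the same shares of all genes. The list had 26 and 74 peaks in all, of which SOX6 held 7 and 32 and RUNX2 7 and 30. SP7 held 7 and 9 and SP1 5 and 3, and SOX5, SOX9 and SCX had none. Among all genes with any peak, 36.8% had more peaks in MAK683. Promoter height of the list was higher in MAK683 at 1 and lower at 2, where 21.5% of all genes were higher. SP1 had 56 and 39 tags (-0.66, -1.29 to -0.04).

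**Figure D5:**
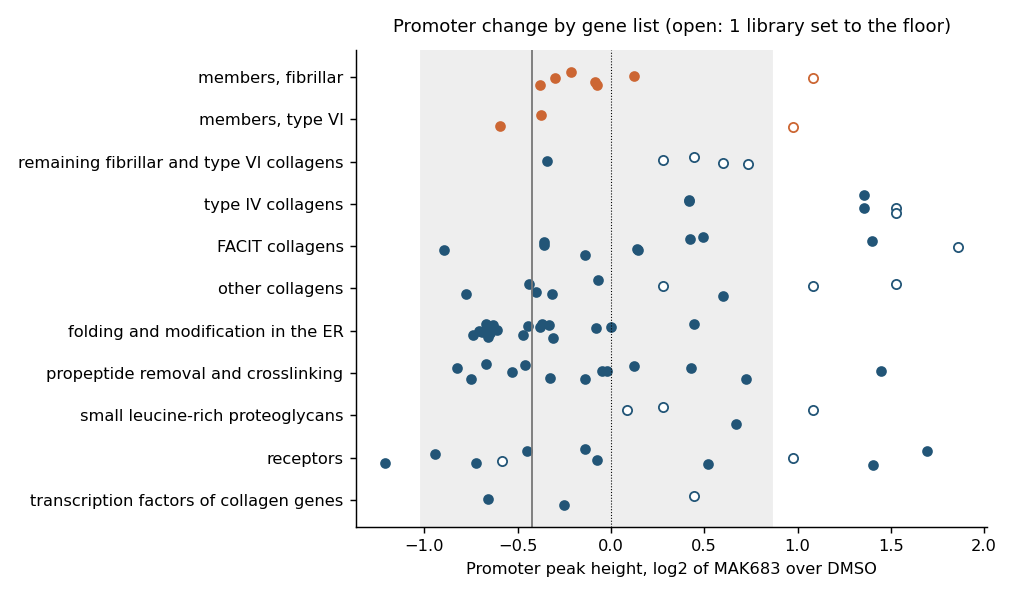
Log2 ratio of promoter peak height, MAK683 over DMSO, for each gene with a promoter peak, by list; orange marks the 10 collagen genes and blue the other lists, and open circles are genes for which 1 library was set to the floor. The grey band spans the 5th to 95th percentile of all genes (-1.02 to 0.86) around the median of -0.42.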

How the data were processed

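Peak tables of an ATAC-seq experiment on G401 cells were used, 1 for DMSO and 1 for MAK683 (3 μM, 3 days), grouped by the treatment label. The authors trimmed the reads with Trim-galore and used Bowtie2 for alignment to hg19. Per the file headers, narrow peaks were called separately for the DMSO and MAK683 libraries by MACS 2.1.1.20160309 (the labels also name 2.1.0 and 2.2.7.1), with a shift of -100 bp, an extension of 200 bp, a q cutoff of 0.05, 1 tag kept per position, no control, no local background and paired ends read as single tags. The deposited pileup signal is the number of tags at the summit, without depth scaling. Fold enrichment, a ratio to the background, the −log10 q-value and the −log10 p-value were deposited by the authors too and depend on depth. The −log10 q-value was used only to filter peaks, the fold enrichment only as an alternative height, and the −log10 p-value not at all.

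Tags at each summit were divided by the tags after filtering of the library and multiplied by 1000000 (RPM; 16598348 in DMSO, 18265284 in MAK683). Peaks of the autosomes, X and Y were assigned to genes of GENCODE 44 lifted to GRCh37 (64449 genes, 20163 of them protein-coding), each with the TSS of its canonical transcript. Promoter height was that of the tallest peak within 3 kb of the TSS. Heights have 95% Clopper-Pearson intervals, and ratios have exact conditional binomial intervals of the tags of both peaks. With 1 library per group no test was made. Peaks overlapping by at least 1 bp were joined into regions.

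All 10 collagen genes were named. From each of 9 lists (93 genes) at most 4 genes were named, those with at least 20 tags in a library and the largest absolute log2 ratio. Inside the collagen genes, the 3 tallest peaks of a gene in a library could be named, and other peaks given with values were chosen after these were seen. The genes and lists were chosen with earlier results of these data known. Sequences came from the RefSeq promoter table (GRCh38.p14, 4 of the 10 genes matched) and the GRCh37 genome. The promoters of COL1A1, COL1A2, COL2A1, COL3A1, COL5A2 and COL6A1 are not shown. Interval code was tested on simulated counts of a fixed site, which does not cover the choice of the tallest listed peak in each library. Alternatives were stricter q limits, equal peak numbers, other windows, TSS sets, overlaps and height scales, and, added after seeing the data, the counts without COL11A1, alone and with the peak filters. Python 3.11.15, numpy 2.4.6, pandas 2.3.3, scipy 1.17.1 and matplotlib 3.10.9 were used.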

Additional observations from a re-analysis of the deposited data

How the results depend on the processing

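A promoter peak was listed at 8 genes in DMSO under every alternative, and at 10 genes in MAK683 except with a −log10 q of at least 10, where it was listed at 8. Counts of peaks depended on the q limit. At a −log10 q of at least 5 there were 102 DMSO and 55 MAK683 peaks and 39 shared regions. At 10 or more there were 52 DMSO peaks, 23 MAK683 peaks, 20 shared regions and 1 gene higher in MAK683. Whole-library totals at these limits are not given beside these counts. The median peak of the whole library was 0.663 RPM in DMSO and 0.547 RPM in MAK683. At equal peak numbers, where MAK683 peaks alone were cut, there were 134 DMSO and 95 MAK683 peaks. Requiring 50% of each peak to overlap left 40 shared regions. Genes higher in MAK683 numbered 5 without depth scaling, 7 with heights divided by the median ratio of shared regions, and 1 when genes without a peak in both libraries were left out. The median log2 ratio of the 10 genes turned to 0.18 with heights divided by that median ratio. Without COL11A1, a choice made after seeing the data, there were 37 DMSO and 56 MAK683 peaks, 37 and 39 at equal peak numbers, 23 and 24 at a −log10 q of at least 5, and 15 and 10 at 10 or more. COL3A1 had a log2 ratio of -1.66 with a 1 kb window or with the peak nearest to the TSS. Of 151 alternative values, 36 for the whole set of genes and 94 for single genes kept their size within counting error or within 1.5 times for counts. For the whole set 18 values moved and 1 reversed, and for single genes 2 moved. Many settings pick the same tallest peak again, so most single-gene values could not move. At this depth a promoter of about 20 tags gives an interval of the ratio too wide to show differences under about 2-fold, and with 1 library per group no leave-one-out or paired analysis was possible because there is no replicate.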

Other observations

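Other collagen families gave the following values in the same libraries, which listed 114060 peaks in DMSO and 161184 in MAK683. Among all protein-coding genes a promoter peak was listed at 72.7% in DMSO and 78.7% in MAK683. Of genes with a promoter peak 21.5% were higher in MAK683, with a median log2 ratio of -0.42. The 6 type IV collagen genes encode the network of basement membranes and are arranged head to head in pairs that share a promoter. They had 13 peaks in DMSO and 144 in MAK683. COL4A1 held 3 and 58 and COL4A2 6 and 59, with peaks of the shared promoter counted for both. COL4A3 held 1 and 12, COL4A4 6 and 16, COL4A5 0 and 2, and COL4A6 0 and 5. Promoter height was higher in MAK683 at all 6 genes, of which 4 had a peak in both libraries and 2 rested on the floor. COL4A1 and COL4A2 shared a promoter peak of 11 tags in DMSO and 31 in MAK683 (log2 ratio 1.36, interval 0.33 to 2.50), and COL4A3 and COL4A4 one of 17 and 25 tags. The FACIT collagens, which attach to the surface of fibrils, had a promoter peak at 9 of 10 genes in DMSO and 10 in MAK683, with 6 higher and 4 lower in MAK683 and 78 and 201 peaks in all. COL22A1 had 10 and 29 tags (1.40, interval 0.32 to 2.60) with 3 and 48 peaks, COL21A1 none and 24 tags, COL12A1 20 and 31 tags, and COL16A1 27 and 16 tags. The other 12 collagen genes had 127 and 171 peaks, with 4 promoters higher and 5 lower in MAK683, and 3 and 3 of the 6 with a peak in both after division by the median ratio of shared regions. COL13A1 had 18 and 30 tags and COL18A1 had 20 and 21 tags.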
